A study of Mus musculus with 12 samples.

Results

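Bone marrow freed of lineage-positive cells (Lin- cells) was compared with the c-KIT-positive, SCA-1-negative progenitors of the Lin- fraction (LSK- cells) in wild type (WT) mice by RNA-seq. The comparison took the 2 Lin- WT and the 2 LSK- WT libraries by their labels, 4 of the 12 libraries of the series. All of them came from female mice of the 129Sv4/Jae x B6 strain, aged 3 months. A Lin- library held RNA combined from 3 mice and an LSK- library RNA combined from 2 mice. Lin- cells were what remained of flushed tibia and femur marrow after red cell lysis and depletion with antibodies to CD11b, Gr-1, CD3ε, B220, CD8a, CD4 and TER-119. LSK- cells were sorted by FACS with the same antibody cocktail together with SCA-1 and c-KIT. The other libraries were LSK+ (SCA-1-positive, c-KIT-positive) WT cells and the same populations of XistΔ/Δ mice, in which Vav-iCre, active in blood cells, deletes a floxed Xist. XistΔ/Δ Lin- and LSK- libraries (2 each) gave a second comparison that shared no library with the first. Xist had 234 and 210 CPM in LSK- WT and still 87.7 and 64.3 CPM in the libraries labelled LSK- XistΔ/Δ, on a scale of 12 libraries, while those labelled Lin- XistΔ/Δ had 36.4 and 34.5 CPM against 2979 and 2949 CPM in Lin- WT.

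Blood cells of the marrow arise from stem cells in the LSK+ fraction, through progenitors that still carry c-KIT, to precursors that lose it. LSK- cells are mostly myeloid and erythroid progenitors. Neutrophil precursors fill their granules in order. The primary granules are filled with myeloperoxidase and serine proteases at the promyelocyte stage. Then come the secondary granules with lactoferrin and lipocalin at the myelocyte stage, and last the gelatinase of near-mature cells. Lin- marrow also holds cells that the antibodies miss, such as B cell precursors before B220, megakaryocytes, basophils, plasma cells and stroma.

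The populations differed in more than their cells. RNA of Lin- cells was isolated with TRIzol and RNA of LSK- cells with the RNeasy Plus Micro kit. Lin- libraries were made with the NuGEN Ovation kit and read single-end. LSK- libraries were made with SMART-Seq v4 and read paired-end. RNA isolation, library kit, read type and population therefore cannot be told apart. For this reason a gene was called only at a fold change of 4 or more (2 on the log2 scale) with an adjusted p under 0.05 in edgeR's quasi-likelihood test, and the text gives the difference as Lin- minus LSK- on the log2 scale. Levels are library-scaled counts (CPM) after TMM scaling, with the ribosomal RNA gene Rn45s, 6.5% to 6.89% of Lin- and 0.414% to 0.715% of LSK- counts, left out. Total counts were 23782107 and 20295739 in Lin- and 79455176 and 76208687 in LSK- cells, and 3 counts, taken as the floor, stood for at most 0.152 CPM. Of 14789 genes tested, 2648 (17.9%) were called higher in Lin- cells and 1189 (8.04%) lower, 25.9% together, with a median over all genes of -0.08. Counts of calls in the gene lists below are to be read beside these shares of 17.9% and 8.04%.

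The difference rose with transcript length, except among the shortest transcripts. When the 14668 genes with a known length were put into 10 bins, the median was -1.03 for transcripts of 1030 to 1513 nt and 1.75 for those of 5944 nt or longer. In the longest bin 42.4% of genes were called higher and 0.273% lower. The XistΔ/Δ comparison, made with the same kits, gave medians of -0.94 and 1.67 in these bins. Transcripts of 56 to 1029 nt, the shortest bin, did not follow this order. Their WT median was -0.43, above that of the next bin, with 22.4% called higher and 14.7% lower. Values are therefore also given, where they change a call or a median, relative to the median of the genes in the same length bin, an alternative added once the data had been looked at. On that scale 2281 genes (15.6%) were called higher and 586 (4%) lower.

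**Figure D1:**
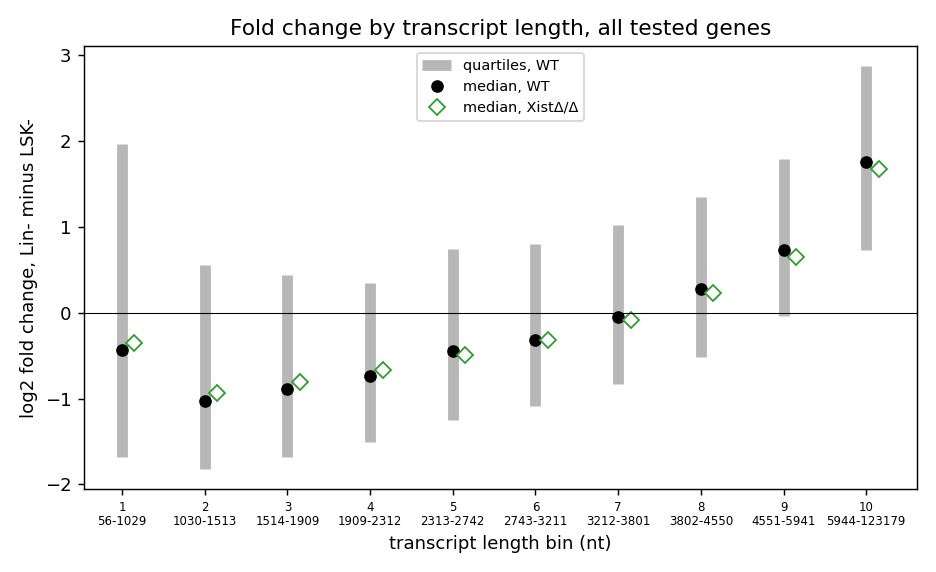
Difference between Lin- and LSK- cells (log2 fold change, vertical axis) in 10 bins of transcript length (horizontal axis, nt). Circles are WT medians, bars span the WT quartiles and diamonds are XistΔ/Δ medians; from the second bin to the tenth the WT medians climb from -1.03 to 1.75.

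The LSK- WT replicates were not alike. LSK- WT replicate 1 had 1911 CPM of Jun against 17.4 in replicate 2, 579 against 15.7 CPM of Fos and 319 against 0.140 CPM of Hspa1a, genes that cells switch on rapidly after stimulation or stress. It also had 1257 CPM of Prg2, which encodes the major basic protein of eosinophils, against 12.97 CPM. LSK- WT replicate 2 was instead higher for the erythroid regulators Klf1 (485 against 164 CPM) and Gata1 (230 against 94.9 CPM). On a scale common to all 12 libraries the LSK- XistΔ/Δ replicates parted in the same way, with 815 and 16.0 CPM of Jun and 2335 and 54.8 CPM of Prg2. Between LSK+ replicates such rapidly induced genes went both ways. LSK+ replicates 1 were higher for Jun, with 317 and 16 CPM in WT and 103 and 9.03 CPM in XistΔ/Δ cells. They were lower for Egr1, with 29.6 and 159 CPM in WT and 28.0 and 108 CPM in XistΔ/Δ cells. Lin- WT libraries stayed between 22.2 and 23.2 CPM of Jun on that scale. Results that rest on LSK- WT replicate 1 are given with and without it below. A fit without it has 1 LSK- library and takes its spread from the Lin- libraries. Its calls therefore do not measure the spread between LSK- libraries.

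**Figure D2:**
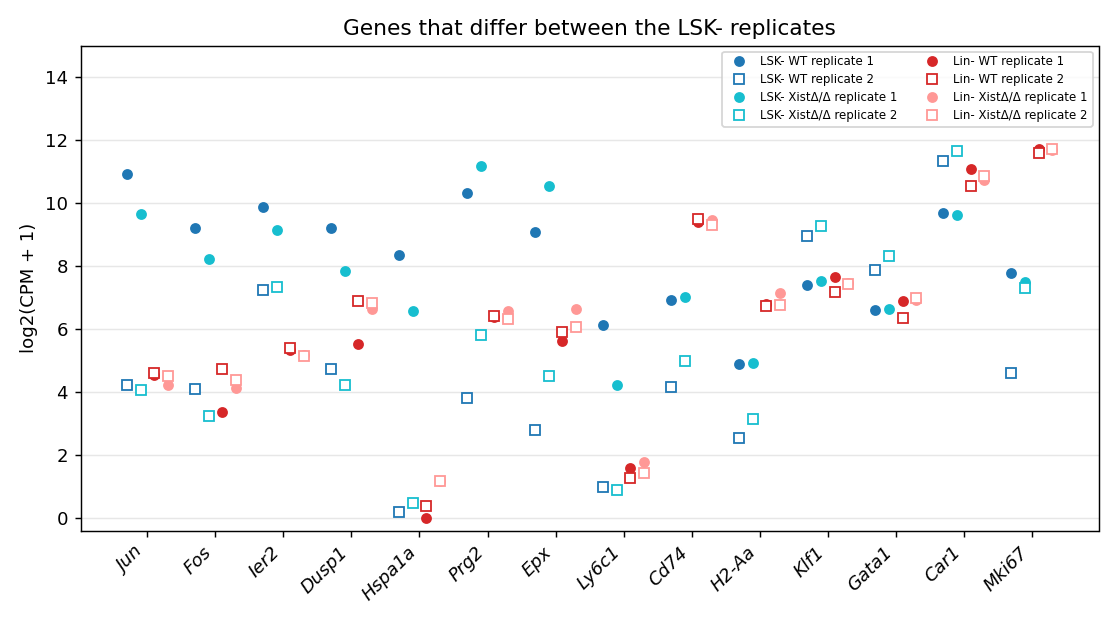
Levels (vertical axis, log2 of CPM + 1 on a scale common to 12 libraries) of 14 genes in the 4 LSK- and 4 Lin- libraries; filled circles are replicate 1 and open squares replicate 2 of a group. For Jun, Fos, Hspa1a, Prg2 and Epx the filled LSK- circles stand far above every other library, while for Klf1, Gata1 and Car1 the open LSK- squares are highest.

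The labels were first held against the genes of the antibodies. Kit, which encodes c-KIT, had 514 and 621 CPM in LSK- and 445 and 385 CPM in Lin- cells. Both Lin- libraries lay below both LSK- libraries, but the difference of -0.45 ± 0.27 (SE) was not called (adjusted p = 0.174, edgeR). Ly6a, which encodes SCA-1, the antigen that LSK- cells were sorted to lack, had 2.46 and 1.90 CPM in LSK- and 29.9 and 33.7 CPM in Lin- cells. Itgam, which encodes CD11b, had 32.1 and 27.0 CPM in LSK- cells and 360 and 564 CPM in the Lin- cells that had been depleted with an antibody to it (3.96 ± 0.31, adjusted p = 2.6e-05). Cd3e was called higher as well, at 10.9 and 7.22 CPM in Lin- against 0.0389 and 0.140 CPM in LSK- cells. Cd8a had no count in LSK- cells and 66 counts in Lin- cells, at least 40.0-fold higher with the floor of 3 counts per library. Ptprc, of which B220 is a splice form that gene counts do not resolve, had 413 and 611 CPM against 129 and 109 CPM (2.11), and it was no longer called without Lin- WT replicate 2 (1.78) or relative to genes of its length (1.38). Cd4 (1.91) and Ly6c2 (1.14) were above in both Lin- libraries without being called. Cd4 passed the 4-fold limit without Lin- WT replicate 2 or LSK- WT replicate 2 (2.02 each), with library totals (2.03), DESeq2 size factors (2.05), the DESeq2 Wald test (2.05), upper quartile scaling (2.12) or a filter at 10 CPM (2.15), and relative to genes of its length (2.23). Ly6c1 was called lower (-4.35), on 67.5 CPM in LSK- WT replicate 1 against 0.977 in replicate 2, and without replicate 1 the value was 0.78 (adjusted p = 0.442). Without Lin- WT replicate 2 it was -4.16 (adjusted p = 0.0518).

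Genes of the primary granules and of the promyelocyte were lower in Lin- cells. Of 18 tested, 12 were called lower and 0 higher, against 8.04% and 17.9% of all genes, and the median was -2.42. Summed over the 18 genes, the level was 59510 and 49130 CPM in LSK- cells and 6827 and 6983 CPM in Lin- cells, 7.87 times lower. In bulk libraries, fewer cells of a type and less RNA per cell cannot be told apart, here as for the lists below. Most of that sum was Mpo (chr11:87793581-87804413, GRCm38), the myeloperoxidase gene, with 36470 and 33310 CPM in LSK- and 3439 and 3388 CPM in Lin- cells. The Lin- libraries differed little and lay far below both LSK- libraries, at -3.35 ± 1.01 (SE, adjusted p = 0.0174, edgeR). With 1 Lin- library left, whose spread is then taken from the other group, Mpo was not called without Lin- WT replicate 1 (adjusted p = 0.206) or replicate 2 (adjusted p = 0.197).

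The neutral serine proteases moved with Mpo. Elane, which encodes neutrophil elastase, had 7418 and 4449 CPM in LSK- and 796 and 828 CPM in Lin- cells (-2.87 ± 0.52, adjusted p = 0.00136). Prtn3, proteinase 3, had 3874 and 2484 against 367 and 396 CPM (-3.06), and Ctsg, cathepsin G, 1759 and 1200 against 229 and 239 CPM (-2.66). All libraries of the populations were apart for these genes. Alas1, the first enzyme of haem synthesis outside red cells, fell by 3.14 and Nkg7, a granule membrane protein, by 3.46. Gfi1, a repressor that promyelocytes need, was called lower (-2.38, from 226 and 64.4 to 23.6 and 32.5 CPM). Gfi1 was not called without LSK- WT replicate 1 (-1.21). Cebpa, which starts the granulocyte path, had 176 and 185 against 65.6 and 73.7 CPM (-1.37) and Fcgr3 123 and 88.6 against 105 and 117 CPM (0.07), and neither was called. Without LSK- WT replicate 1 the list had 10 lower calls and 1 higher call, Igsf6 (2.26).

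The primary granule genes were also set against LSK+ cells, which were prepared with the kit of LSK- cells and read single-end like Lin- cells. Lin- WT minus LSK+ WT gave a median of 1.23 for this list, where 20.4% of all genes were called higher and 10.1% lower, and the Lin- libraries are shared with the comparison above. On the scale of 12 libraries Elane had 95.5 and 21.1 CPM in LSK+, 820 and 857 in Lin- and 7559 and 4530 in LSK- WT cells. For Elane the 3 populations did not overlap. Relative to genes of the same length the list median was -2.05, with 10 lower calls.

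Genes of the secondary granules and of the myelocyte were higher in Lin- cells. Of 19 tested, 14 were called higher and 0 lower, and the median was 4.82 (5.32 relative to genes of the same length, with 17 called higher). Both Lin- libraries were above both LSK- libraries for 18 of them, as for 38.6% of all genes. The sum over the list rose from 983 and 1563 CPM in LSK- to 15200 and 23300 CPM in Lin- cells, 15.1-fold. Ltf, the lactoferrin gene (chr9:111019271-111042767), had 28.5 and 112 CPM in LSK- and 1735 and 2776 CPM in Lin- cells (5.004 ± 0.66, adjusted p = 0.000264, edgeR). Replicate 2 was the higher library of each population, and the populations stayed far apart. Lcn2, neutrophil lipocalin, which binds siderophores, had 11.1 and 40.2 against 2542 and 4134 CPM (7.03). Mmp8, neutrophil collagenase, had 4.19 and 6.80 against 784 and 1433 CPM (7.66). Ngp (4.31) and Camp (3.31), which encode an antimicrobial cathelicidin relative and cathelicidin itself, were called at smaller values, with 404 and 131 CPM in LSK- WT replicate 2. Stfa2l1, a stefin with close paralogs, had 1 count in LSK- and 900 counts in Lin- cells, a ratio of 3128 with a counting interval of 560.0 to 123700 (95%, exact). Cebpe, the C/EBP factor that drives the myelocyte stage, went the other way without a call, at 135 and 60.0 in LSK- and 39.7 and 55.9 CPM in Lin- cells (-1.03). The list median was 4.12 without LSK- WT replicate 1, with 15 higher calls, and without replicate 2 it was 6.19 with 14.

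**Figure D3:**
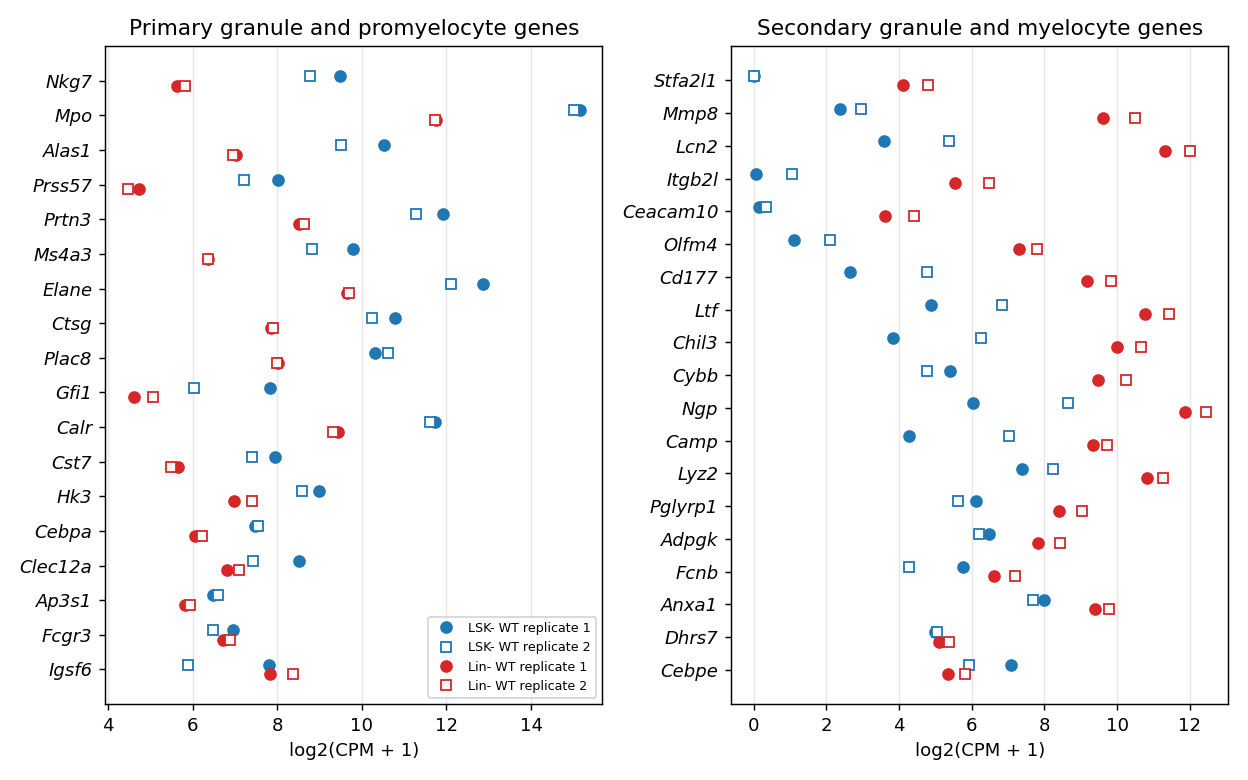
Levels (horizontal axis, log2 of CPM + 1) of the tested primary granule genes (left) and secondary granule genes (right) in the 4 WT libraries; blue marks are LSK- and red marks Lin- cells, filled circles replicate 1 and open squares replicate 2. Red marks lie to the left of blue marks for 16 of 18 primary granule genes and to the right for 18 of 19 secondary granule genes.

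Ltf, Ngp and Camp, which moved together, lie on chromosome 9, and the 250 bases before their starts are shown with matches to the motif that C/EBP factors bind. The windows and starts are those of RefSeq (GRCm38.p6), whose start of Ltf lies inside the GENCODE span given above, printed 5′ to 3′ on the strand of the gene, and capitals mark the C/EBP-type motif TTNNGNAA or, for the other strand, TTNCNNAA.
Ltf (chr9:111019042-111019291, + strand): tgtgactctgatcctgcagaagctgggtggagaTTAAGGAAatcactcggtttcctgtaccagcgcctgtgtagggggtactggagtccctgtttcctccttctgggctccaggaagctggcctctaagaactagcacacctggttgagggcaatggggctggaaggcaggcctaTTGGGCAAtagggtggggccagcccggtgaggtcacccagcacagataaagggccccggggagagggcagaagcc
Ngp (chr9:110419558-110419807, + strand): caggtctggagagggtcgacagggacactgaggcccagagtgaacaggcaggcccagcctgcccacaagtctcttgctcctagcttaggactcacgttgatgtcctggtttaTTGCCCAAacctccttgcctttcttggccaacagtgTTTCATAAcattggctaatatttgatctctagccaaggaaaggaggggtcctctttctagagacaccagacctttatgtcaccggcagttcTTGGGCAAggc
Camp (chr9:109849457-109849706, - strand): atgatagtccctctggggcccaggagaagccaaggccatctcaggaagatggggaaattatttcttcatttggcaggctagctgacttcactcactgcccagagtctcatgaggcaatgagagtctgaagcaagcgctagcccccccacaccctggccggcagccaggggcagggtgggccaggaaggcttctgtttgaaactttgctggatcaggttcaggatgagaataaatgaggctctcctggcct
The motif was found 2 times in the Ltf window, 3 times in the Ngp window and 0 times in the Camp window. Over the lists it was in 14 of 19 secondary granule promoters (73.7%), 12 of 17 mature neutrophil promoters (70.6%) and 7 of 16 primary granule promoters (43.8%), and in 36.9% of 27025 promoters of the same length. These promoters are those of the listed genes, tested or not, and the 14 include Ly6g, which is not in the count data. A match describes the letters of these windows and is not a binding site.

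Genes of near-mature neutrophils rose with the secondary granule genes, with 12 of 19 called higher, 0 lower and a median of 3.78. S100a8 and S100a9, the subunits of calprotectin, had 5784 and 7990 CPM and 3819 and 5683 CPM in Lin- cells, against 76.8 and 197 CPM and 34.2 and 130 CPM in LSK- cells. Mmp9, gelatinase B, had 720 and 1178 against 4.201 and 7.71 CPM (7.32), and Retnlg, resistin-like gamma, 303 and 485 against 2.87 and 5.81 CPM (6.51). The chemokine receptor Cxcr2, which releases neutrophils to the blood, was at 4.58. Csf3r, the G-CSF receptor, was at 1.66 and not called, and passed the 4-fold limit without LSK- WT replicate 1 (2.12). Relative to genes of the same length 14 members were called higher and the list median was 3.33.

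Of 24 monocyte and macrophage genes tested, 12 were called higher and 1 lower, with a median of 1.88. Fn1, fibronectin (chr1:71585520-71653200), had 2.62 and 2.64 CPM in LSK- and 1157 and 1942 CPM in Lin- cells (9.20 ± 0.48, adjusted p = 2.98e-06, edgeR). The macrophage genes Mrc1, the mannose receptor (5.19), and the complement genes C1qb (3.37), C1qc (2.87) and C1qa (2.57) were called higher. C1qb, for one, had 3.02 and 2.15 CPM in LSK- and 27.6 and 25.9 CPM in Lin- cells. Monocyte genes that were not called had a range of values. Ccr2, the chemokine receptor by which monocytes leave the marrow, had 61.1 and 76.7 against 150.2 and 180.4 CPM (1.26), with the Lin- libraries above. Csf1r, the M-CSF receptor, had 173 and 143 against 147 and 208 CPM (0.17), F13a1 626 and 399 against 431 and 550 CPM (-0.06) and Ly86 39.7 and 40.7 against 38.1 and 37.3 CPM (-0.09). These groups overlapped for Csf1r and F13a1. Cd14, the lipopolysaccharide co-receptor, was the lower gene, from 96.3 and 46.4 to 7.96 and 13.01 CPM (-2.77, and -1.88 relative to genes of its length, where it was not called). The median without LSK- WT replicate 1 was 2.55, with 13 called higher and 1 lower.

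B cell genes were among the clearest. Of 22 tested, 17 were called higher in Lin- cells and 0 lower, and the median was 4.70 (5.29 relative to genes of the same length). Pax5, the factor that commits cells to the B lineage, had 0.130 and 0 CPM in LSK- and 48.4 and 53.3 CPM in Lin- cells (9.51 ± 0.65, adjusted p = 7.37e-06). Ebf1, which acts before Pax5, had 1.08 and 0.112 against 67.2 and 96.4 CPM (7.07). Rag1, which cuts the receptor genes for rearrangement, had 0.324 and 0.0698 against 51.4 and 74.1 CPM (8.27). Cd79a, a signalling chain of the B cell receptor, was at 6.68. The interleukin-7 receptor gene Il7r, on which B cell precursors depend, had 4.77 and 1.70 against 53.2 and 56.8 CPM (4.08). For each of these genes the lower Lin- library was above the higher LSK- library. Members of the surrogate light chain were at smaller values, Igll1 at 2.89 and Vpreb1 at 2.21. Dntt, the terminal transferase of early lymphoid progenitors, had 135 and 73.3 against 30.1 and 38.4 CPM (-1.60) and Rag2 7.16 and 6.12 against 9.78 and 13.8 CPM (0.82), and neither was called. In XistΔ/Δ mice Dntt was at 1.40. Summed, the B cell list stood at 413 and 429 CPM in LSK- and 1879 and 2035 CPM in Lin- cells.

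Plasma cell genes were called in both directions. Irf4, a factor of plasma cells and of B cell precursors, had 0.130 and 0.209 CPM in LSK- and 87.3 and 102 CPM in Lin- cells (9.11). Jchain, which joins polymeric antibodies, had 0.182 and 10.2 against 842 and 1183 CPM (7.61). On the scale of 12 libraries Jchain also had 94.6 and 61.4 CPM in LSK+ WT cells. Prdm1 (3.95), Mzb1 (3.92) and Tnfrsf17 (4.86) were also called higher, 5 of 12 in all. Creld2 (-2.54) and Fkbp11 (-3.30), which serve protein folding in the secretory pathway, were called lower, and Xbp1, the factor of that pathway, was not called (-0.70). Creld2 was not called relative to genes of its length (-1.51). Without LSK- WT replicate 1 Creld2 was at -1.91 and 6 members were called higher and 1 lower.

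T cell and NK cell genes were higher at low levels. Of 21 T cell genes 11 were called higher and 0 lower, with a median of 2.60. Cd8b1 had 2 counts in LSK- and 197 counts in Lin- cells (ratio 342, 93.5 to 2847). Cd3g had 0.0519 and 0.0279 CPM in LSK- and 2.34 and 1.47 CPM in Lin- cells (5.49), and Thy1 0.324 and 0.489 against 14.7 and 11.5 CPM (5.01). Summed over the list, T cell genes made 213 and 181 CPM in Lin- against 158 and 150 CPM in LSK- cells. Genes of T cell receptor signalling were among those not called, Ubash3a with 91.9 and 82.9 against 59.8 and 49.6 CPM (-0.68) and Lck with 19.8 and 12.2 against 9.21 and 11.8 CPM (-0.61). Relative to genes of its length Ubash3a was called lower (-2.43).

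Of 20 NK cell genes 13 were called higher and 2 lower, with a median of 3.33. The sum over this list ran against the count, at 786 and 511 CPM in LSK- and 339 and 354 CPM in Lin- cells, and Nkg7 (-3.46), called lower, made 713 and 435 CPM of the LSK- sum. Gzmb, granzyme B, was the other member called lower (-2.65), and not relative to genes of its length (-1.62). Eomes, a T-box factor of NK cells, had 0.0778 and 0.154 against 6.97 and 4.07 CPM (5.57). Ncr1, an activating receptor of NK cells, had 0.324 and 0.196 against 3.20 and 2.90 CPM (3.53), and Gzma, granzyme A, 0.208 and 0.0140 against 8.74 and 4.57 CPM (5.85). Xcl1 and Klre1 had 3 counts each in LSK- cells, and neither was called without LSK- WT replicate 1 (7.64 and 4.97) or replicate 2 (3.997 and 4.25).

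Dendritic cell genes had 10 of 20 called higher, 0 lower and a median of 1.99. Siglech, a receptor of plasmacytoid dendritic cells, had 1.28 and 0.279 CPM in LSK- and 31.6 and 30.1 CPM in Lin- cells (5.28). Clec9a, of cross-presenting dendritic cells, was at 4.84. Cd74, the invariant chain of MHC class II, had 120 and 16.6 against 658 and 705 CPM (3.32), and its LSK- libraries differed more than its Lin- libraries. Irf8, the factor that monocyte and dendritic progenitors need, was below in both Lin- libraries and not called, with 596 and 538 against 208 and 209 CPM (-1.45). Klk1, called on 59 counts in Lin- cells against 0, went the other way in XistΔ/Δ mice (-8.90). The list had 9 higher calls without LSK- WT replicate 1.

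Early erythroid genes had a median of 0.05 over 22 genes, with 1 called higher, the membrane anchor Ank1, and 1 lower, the adhesion gene Icam4 (-2.41). Icam4 was not called without LSK- WT replicate 2 (-1.38) or relative to genes of its length (-1.98). Klf1 had 164 and 485 CPM in LSK- and 195 and 139 CPM in Lin- cells (-0.96), and Gata1 94.9 and 230 against 114 and 77.6 CPM (-0.76). Car1, a carbonic anhydrase of early red cells, had 808 and 2566 against 2108 and 1441 CPM (0.07). The groups overlapped for all of these, and the list median was -0.48 without LSK- WT replicate 1 and 0.73 without replicate 2. Late erythroid genes had 5 of 20 called higher, beside 17.9% of all genes, and 0 lower, with a median of 1.00. Early and late genes were not tested against each other. Slc4a1, the anion exchanger of the red cell membrane, had 2.65 and 2.18 against 201 and 94.5 CPM (5.93). Alas2, the red cell enzyme of haem synthesis, had 1.37 and 1.67 against 23.3 and 11.5 CPM (3.52). The spectrin gene Sptb (4.01) and the iron carrier gene Slc25a37 (2.25) were also called. Slc25a37 was not called relative to genes of its length (1.98) or without LSK- WT replicate 2 (1.80). All 10 haemoglobin genes are listed at 0 in these 4 libraries, and Gapdh at 62 to 229 counts, so nothing was drawn from them.

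Megakaryocyte and platelet genes were higher, with 10 of 21 called, 0 lower and a median of 1.95 (2.27 relative to genes of the same length, with 14 called). Ppbp, a platelet chemokine, had 2.23 and 1.56 CPM in LSK- and 226 and 283 CPM in Lin- cells (7.06). Tubb1, the tubulin of platelets, had 1.66 and 2.42 against 217 and 248 CPM (6.84). Thbs1, thrombospondin (4.84), Gp1ba, the receptor for von Willebrand factor (4.04), and Itgb3, integrin β3 (3.94), were also called. Itga2b, integrin αIIb, which appears early in the lineage, had 167 and 165 against 146 and 168 CPM (-0.08), and its groups overlapped. Nfe2, a factor of platelet release that erythroid cells share, was at -0.91 and not called.

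Granulocyte genes other than those of neutrophils depended on LSK- WT replicate 1. Of 21 basophil, mast cell and eosinophil genes 5 were called higher (23.8%, beside 17.9% of all genes) and 2 lower (9.52%, beside 8.04%). The median was -0.39, and 1.35 without that library. Prg2 had 80.1 and 80.9 CPM in Lin- cells, between its 1257 and 12.97 CPM in LSK- cells. Its value went from -2.98 (not called) to 2.63 without LSK- WT replicate 1. Epx, eosinophil peroxidase, had 532 and 5.81 against 47.1 and 57.5 CPM, and went from -2.36 to 3.17. Without LSK- WT replicate 2 Prg2 was at -3.93 and Epx at -3.31. The basophil gene Cd200r3 did not depend on LSK- WT replicate 1, with 0.869 and 0.684 against 12.1 and 20.1 CPM (4.36). Mcpt8, a basophil protease, was at 0.96 and not called.

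Stromal and endothelial genes were called higher for 16 of 22, with 0 lower and a median of 4.21, or 3.88 with the 3 genes that had no LSK- count at their floor. Cxcl12, the chemokine by which marrow stroma holds blood cells, had 3.50 and 4.86 CPM in LSK- and 276 and 209 CPM in Lin- cells (5.86 ± 0.32, adjusted p = 3.74e-06). Col1a1, a collagen I chain, had 3 counts in LSK- cells and 75.5 and 21.7 CPM in Lin- cells (ratio 2516, 859.9 to 12210). Lepr, a receptor of perivascular stroma (8.03), and Kitl, the ligand of c-KIT (7.40), moved with them. Kitl had 0.156 and 0 CPM against 9.95 and 18.1 CPM. Pdgfra had no count in LSK- cells and was at least 84.0-fold higher. Pecam1, which endothelium shares with progenitors, had 101 and 85.8 against 128 and 133 CPM (0.48).

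**Figure D4:**
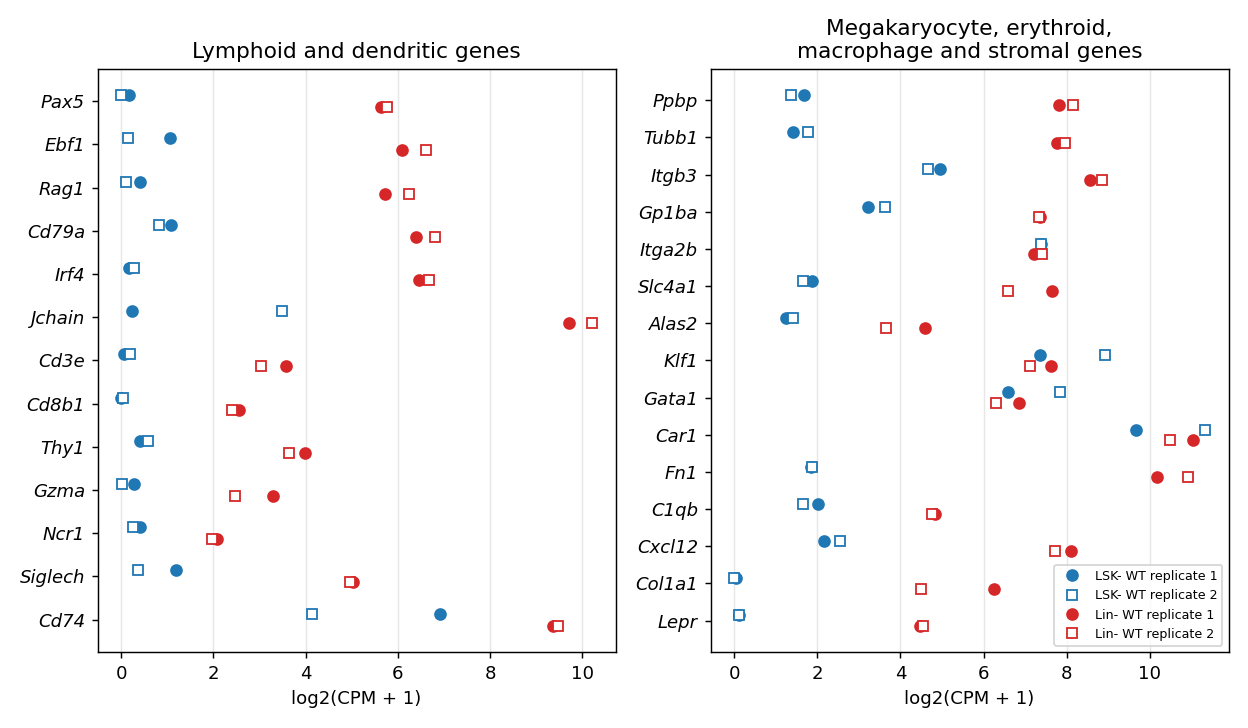
Levels (horizontal axis, log2 of CPM + 1) of lymphoid and dendritic genes (left) and megakaryocyte, erythroid, macrophage and stromal genes (right) in the 4 WT libraries, blue for LSK- and red for Lin- cells, circles for replicate 1 and squares for replicate 2. Red marks stand to the right except for Itga2b, Klf1, Gata1 and Car1, whose populations overlap.

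Stem and progenitor genes were called in both directions. Of 25 tested, 3 were called higher (12%, beside 17.9% of all genes) and 4 lower (16%, beside 8.04%), with a median of -0.87. Cd34, a surface protein of stem cells and early progenitors, had 605 and 990 CPM in LSK- and 95.3 and 71.7 CPM in Lin- cells (-3.26 ± 0.34, adjusted p = 9.02e-05). Sox4, a transcription factor of progenitors, had 463 and 500 against 80.7 and 92.3 CPM (-2.48), and Egfl7 (-3.14) and Cd48 (-2.26) were called lower as well. Higher were Ly6a, the RNA-binding protein gene Msi2 (28.8 and 47.1 against 205 and 184 CPM, 2.36) and Slamf1, which encodes CD150 (2.19). Slamf1 was not called without LSK- WT replicate 1 (1.72), nor Cd48 without replicate 2 (-1.93) or relative to genes of its length (-1.23). Myb, which progenitors of all lineages need, had 825 and 720 against 872 and 767 CPM (0.09), and its groups overlapped.

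Among 30 transcription factors of blood lineages 5 were called higher (16.7%, beside 17.9% of all genes) and 1 lower (3.33%, beside 8.04%). The higher ones were Pax5, Ebf1, the T cell factor Bcl11b (3.63), Klf4 (2.82) and Ikzf1 (2.08), and Gfi1 was the lower one. Klf4 was not called without LSK- WT replicate 2 (1.94), and without replicate 1 the list had 7 higher and 0 lower calls. Factors that several myeloid lineages use were not called, such as Spi1 with 444 and 326 against 200.0 and 271 CPM (-0.71) and Runx1 with 191 and 143 against 302 and 313 CPM (0.88). Of 33 cytokine and chemoattractant receptors 13 were called higher and 0 lower. The formyl peptide receptor genes Fpr2 (7.75) and Fpr1 (7.05) and the complement receptor gene C5ar1 (6.84), all used by neutrophils to find their targets, had the largest values. Cxcr4, the receptor of Cxcl12, had 70.2 and 62.8 against 294 and 355 CPM (2.29). Il3ra, the interleukin-3 receptor α chain, was at -1.97 and Epor, the erythropoietin receptor, at -0.999, both not called.

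Cell cycle genes gave mixed values. Of 24 S phase genes 22 were below in both Lin- libraries, where 41.4% of all genes were. Yet 2 were called lower, Rfc2 (-2.35) and Fen1 (-2.05), which is 8.33% beside 8.04% of all genes. Fen1 was not called without LSK- WT replicate 2 (-1.73), without Lin- WT replicate 2 (-1.91) or relative to genes of its length (-1.31). An adjusted p under 0.05 with a lower level was reached by 17 of them (29.4% of all genes reached it). The median was -1.14, and it was -0.58 relative to genes of the same length. Mcm6, of the replicative helicase, had 964 and 1213 CPM in LSK- and 403 and 335 CPM in Lin- cells (-1.56). Of 24 mitotic genes 2 were called higher (8.33%, beside 17.9% of all genes) and 0 lower, with a median of 0.015. Mki67, which encodes Ki-67, had 217 and 23.1 CPM in LSK- and 3275 and 2960 CPM in Lin- cells (4.70). Its transcript is 10061 nt long. On the scale of 12 libraries its level was 23.5 to 221 CPM in the 8 libraries made with SMART-Seq and 3067 to 3406 CPM in the 4 made with NuGEN, with no overlap. The parts of library kit, RNA isolation and length in its difference were not tested. Cenpf, the other one called, was at 2.36. At an adjusted p under 0.05 and no limit of size, 6 mitotic genes were higher (28.4% of all genes were) and 8 lower (29.4%). Top2a, topoisomerase IIα, was above with 432 and 242 against 755 and 733 CPM (1.14), and Aurkb, a mitotic kinase, below with 293 and 232 against 79.5 and 63.7 CPM (-1.87).

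Immediate early and heat shock genes were called lower for 9 of 16, with a median of -2.53 (0 called higher). This rested on LSK- WT replicate 1. Without it, 0 of 15 were called lower, 4 were called higher and the median was 0.35. Jun was then at 0.34, Fos at 0.08, (without Lin- WT replicate 1, Fos was at -3.61 and not called), and Zfp36, which marks messages for decay, went from -0.17 to 3.22.

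RNAs named as histone, small nuclear, nucleolar or other transcripts that mostly lack a poly(A) tail had 123 of 220 called higher, 8 lower and a median of 3.32 (3.30 with the 23 that had no count in 1 population at their floor). Their sum was 969 and 1135 CPM in LSK- and 17970 and 15870 CPM in Lin- cells. Mir6236, called lower, made 406 and 610 CPM of the LSK- sums and 0.562 and 0.559 CPM of the Lin- sums, and without it the LSK- sums were 563 and 525 CPM. Rmrp, an RNA of mitochondrial and nucleolar RNA processing, had 0.0130 and 0.112 against 2012 and 2285 CPM, and the linker histone gene Hist1h1e 29.8 and 41.2 against 1499 and 1524 CPM. SMART-Seq primes on the poly(A) tail and Ovation also primes within the RNA. The parts of library kit and RNA isolation in this difference were not tested. Ribosomal protein genes, whose messages carry tails, had a median of 0.56. Of 40, 4 were called higher (10%, beside 17.9% of all genes) and 1 lower (2.5%, beside 8.04%). Near-identical copies make counts of histone and ribosomal protein genes uncertain.

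**Figure D5:**
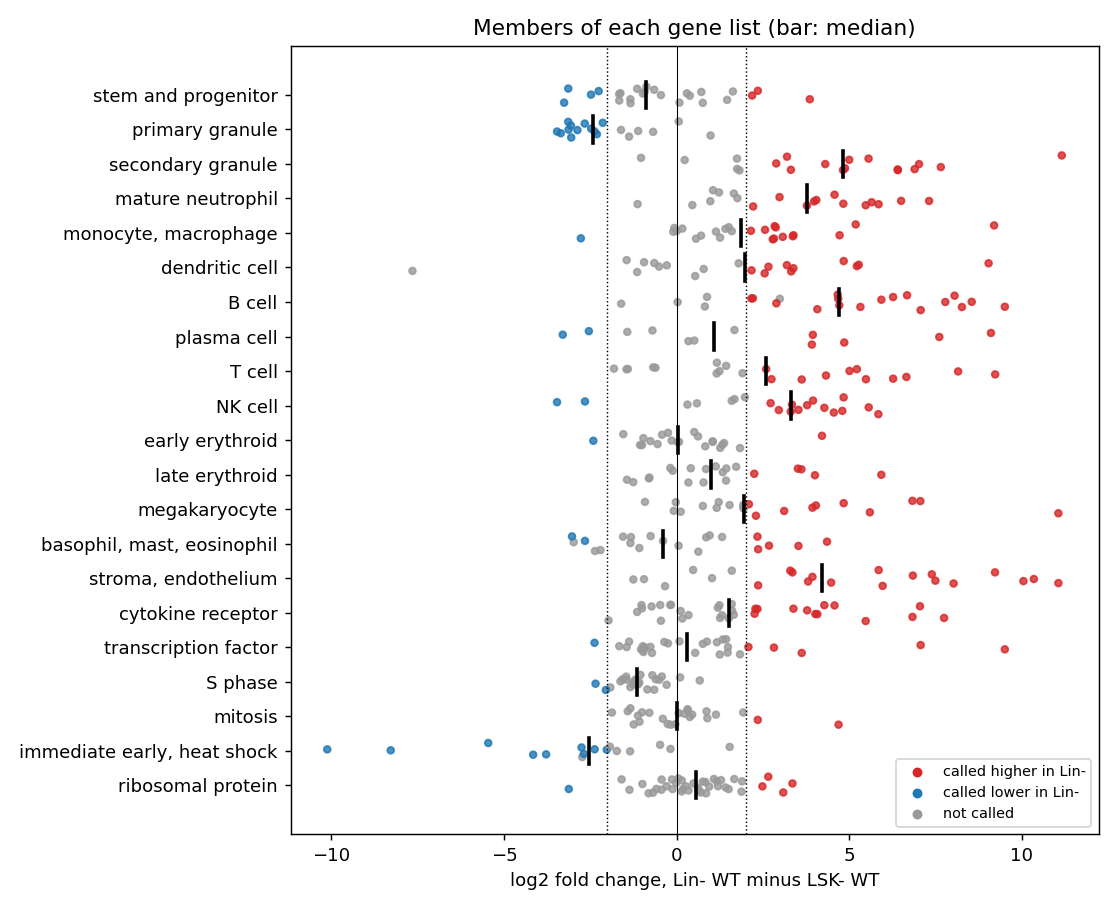
Difference between Lin- WT and LSK- WT cells (log2 fold change, horizontal axis) for the tested members of 21 gene lists; red points were called higher, blue points lower and grey points not called, black bars are list medians and dotted lines mark the 4-fold limit. Secondary granule (median 4.82), B cell (4.70) and stromal (4.21) lists stand farthest to the right and the immediate early (-2.53) and primary granule (-2.42) lists to the left.

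The genes called with the largest differences, at 20 CPM or more in the higher population, with groups that did not overlap and 4-fold in the same direction in XistΔ/Δ mice, were named by rule, 12 in each direction, leaving out predicted gene models and the RNAs without a poly(A) tail, among which Rmrp (15.05) and Mir6236 (-9.82) had larger values. Among the higher were Slc6a4, the serotonin transporter, with no count in LSK- and 68.6 and 66.7 CPM in Lin- cells (at least 1675-fold higher), and Ace, angiotensin-converting enzyme, with none and 23.5 and 76.3 CPM (at least 1236-fold higher). Chst3, a chondroitin sulfotransferase, had 1 count in LSK- and 65.5 and 83.4 CPM in Lin- cells, a ratio of 10970 (1967 to 433300). Steap4, a metalloreductase, had 2 counts against 21.2 and 47.2 CPM, Cd226, an adhesion receptor of lymphocytes and platelets, 0.156 and 0 against 54.7 and 61.5 CPM (9.45), and Fcmr, the IgM Fc receptor, 0 and 0.0977 against 30.02 and 44.7 CPM (9.55). Ifit1bl2 and Arhgef37 completed that set with Stfa2l1, Col1a1, Pax5 and Fn1. Among the lower were the ubiquitin gene Ubb (315 and 395 against 4.59 and 5.34 CPM, -6.16), the mitochondrial genes Hint2 (-4.67), Gcat (-4.25) and Slirp (-3.79), the phosphatase gene Dusp2 (-4.28) and the potassium channel gene Kcnk12 (243 and 217 against 15.5 and 14.6 CPM, -3.93). Fbp1, Chst13, Akr1c13 and Scrn2 lay between -4.06 and -3.78. Against LSK+ WT cells, read single-end like Lin- cells, Ubb was at -2.53, Slirp at -1.135 and Chst13 at 2.25. Hint2 (-3.49), Gcat (-4.12), Dusp2 (-4.55), Kcnk12 (-3.25), Fbp1 (-4.45), Akr1c13 (-4.65) and Scrn2 (-4.05) stayed lower there. The part of the read type in these differences was not tested. Ccl4, a chemokine gene, was at -5.36 on 103 CPM in LSK- WT replicate 1 against 2.85 in replicate 2, and was not called without replicate 1 (-1.15). Lars2, at 4926 and 8608 against 272 and 183 CPM (-4.90), carries a stretch that resembles ribosomal RNA and is uncertain.

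The comparison was repeated in XistΔ/Δ mice with libraries of their own, made with the same pair of kits. Of 14460 genes tested there, 2400 (16.6%) were called higher in Lin- cells and 879 (6.08%) lower. Of the WT calls, 1967 of 2648 higher genes were also called higher there (74.3% of the WT and 82% of the XistΔ/Δ calls), and 670 of 1189 lower genes were also called lower (56.3% and 76.2%). Of those WT calls, 2327 higher and 1186 lower genes were tested in XistΔ/Δ mice, and 98.8% and 98.6% of these had the same sign. The list medians were -2.45 for primary granule, 4.66 for secondary granule, 3.08 for mature neutrophil, 5.15 for B cell, 2.69 for megakaryocyte and 5.25 for stromal genes. Mpo had 51670 and 21890 CPM in LSK- and 3537 and 2744 CPM in Lin- XistΔ/Δ cells. Ltf had 75.7 and 70.8 against 1640 and 2068 CPM, and Fn1 5.23 and 1.27 against 2044 and 1878 CPM. Immediate early genes had a median of -1.10 there against -2.53 in WT mice, and stem and progenitor genes -0.07 against -0.87, with Cd34 at -2.22. An interaction of population with genotype was fitted over 8 libraries, and 1 of 15516 genes, Xist, passed an adjusted p of 0.05 (edgeR), with 395 genes at an unadjusted p under 0.05.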

How the data were processed

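RNA-seq libraries of Lin- and LSK- cells of WT mice were compared, 2 of each. The authors deposited raw counts per gene symbol for each library. Per the study's methods, the authors trimmed reads with Trim Galore (0.6.0), aligned them to mm10 with TopHat2 (2.1.1), kept alignments of high mapping quality with SAMtools (1.10) and counted exons with featureCounts (1.6.3); versions are from the submitters' processing notes. Strand and read-pair options are not given in the sources used here, so overlapping and antisense genes, and genes with near-identical copies, are uncertain.

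Here Rn45s was removed, genes were filtered with filterByExpr, libraries were scaled by TMM, and groups were compared with edgeR 4.0.16 (R 4.3.3) by its quasi-likelihood test with Benjamini-Hochberg adjustment over all genes tested. A call needed an adjusted p under 0.05 and a log2 difference of 2 or more. A gene with no count in a population was set to a floor of 3 counts per library, and ratios on 1 to 3 counts have exact 95% intervals, which cover counting error only. The fit was tested on simulated counts. Gene coordinates and transcript lengths are from the GENCODE annotation of GRCm38, and promoters from RefSeq. A length is the median over a gene's transcripts that have a RefSeq match, or over all its transcripts where none has. Nothing says that the libraries of a group came from separate preparations beyond their pooled mice, so p-values measure the spread between these libraries.

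Genes were named by rule: the genes of the antibodies, 12 genes with the largest difference in each direction (20 CPM or more, groups apart, 4-fold in the same direction in XistΔ/Δ mice, leaving out predicted gene models and RNAs without a poly(A) tail), and called and highest members of each list. The comparison, lists and named genes were chosen with earlier results of these data known. Other scalings, filters, tests (DESeq2 1.42.0), sample sets and the leaving out of each library were tried.

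Some members of the lists are counted in the totals but not reported here by name.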

Additional observations from a re-analysis of the deposited data

Results flagged for a closer look

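Of 15516 genes, 1 passed an adjusted p of 0.05 for a difference between genotypes in its Lin- minus LSK- value (edgeR). With 2 libraries per group, genes that did not pass may still differ. Xist, the RNA that silences an X chromosome, was higher in Lin- than in LSK- cells in WT mice by 4.85 ± 0.32 (SE) more on the log2 scale than in XistΔ/Δ mice (adjusted p = 0.00137, edgeR interaction in 8 libraries). On a scale of 12 libraries it had 2979 and 2949 CPM in Lin- WT, 234 and 210 CPM in LSK- WT, 36.4 and 34.5 CPM in Lin- XistΔ/Δ and 87.7 and 64.3 CPM in LSK- XistΔ/Δ cells. Xist is the gene deleted in XistΔ/Δ mice and has a long transcript. In a fit chosen after seeing the data, with the replicate number as a block within each population, Xist was at 4.83 ± 0.25 (adjusted p = 0.000406, edgeR), again the 1 gene past the threshold, with 575 genes at an unadjusted p under 0.05.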

How the results depend on the processing

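The counts of calls (2648 higher, 1189 lower) stayed within 1.5 times under DESeq2 size factors, upper quartile scaling, library totals, the DESeq2 Wald test, the legacy fit, no filter, Rn45s kept, RNAs without a poly(A) tail left out, 8 or 12 libraries (2415 to 2926 higher and 855 to 1196 lower over these) and each library left out (2297 to 2810 higher, 1001 to 1338 lower). They were 1400 and 603 with at least 10 CPM, and the lower calls were 586 relative to length, 3616 at a log2 limit of 1, 241 at 3 and 2033 with glmTreat. Upper quartile scaling shifted all genes by 0.207, DESeq2 size factors by 0.142 and totals by 0.115. The cause of the changes below was not tested.

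List medians that moved were, for DESeq2 size factors, megakaryocyte 2.09 and stroma 4.35; for upper quartile, stem and progenitor -0.67, T cell 2.80, megakaryocyte 2.16, stroma 4.42, transcription factor 0.52, receptor 1.72, S phase -0.93 and ribosomal protein 0.77; for totals, stroma 4.33; for the Wald test, megakaryocyte 2.09 and stroma 4.32. Without a filter they were mature neutrophil 3.34, stroma 4.46 and RNAs without a tail 1.99. At 10 CPM they were B cell 5.27, plasma cell 0.76, T cell 1.68, NK cell 2.52, late erythroid 1.38, megakaryocyte 2.19, stroma 4.04, transcription factor 0.16, receptor 1.76, S phase -0.90 and RNAs without a tail 7.60. Mature neutrophil was 3.36 with 8 and 3.40 with 12 libraries, where RNAs without a tail were 2.59. Relative to length they were primary granule -2.05, mature neutrophil 3.33, monocyte 2.46, B cell 5.29, plasma cell 1.69, T cell 2.32, late erythroid 1.42, megakaryocyte 2.27, stroma 5.03, transcription factor 0.14, S phase -0.58 and ribosomal protein 1.16.

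When each library was left out in turn, list medians ran from -0.96 to -0.55 for stem and progenitor, 4.12 to 6.19 for secondary granule, 3.04 to 4.13 for mature neutrophil, 1.76 to 2.55 for monocyte, 4.41 to 6.33 for B cell, 0.99 to 1.42 for plasma cell, 2.21 to 2.80 for T cell, -0.48 to 0.73 for early erythroid, 0.69 to 1.24 for late erythroid, 1.89 to 2.35 for megakaryocyte, -0.76 to 1.35 for basophil, mast cell and eosinophil, 3.54 to 5.38 for stroma, 0.20 to 0.48 for transcription factor, 1.19 to 1.70 for receptor, -1.30 to -0.93 for S phase, -3.28 to 0.35 for immediate early and 2.46 to 5.47 for RNAs without a tail. A population then has 1 library, which is assumed to vary like the other group.

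Some genes changed sign. When each library was left out, values ran from -5.29 to 0.78 for Ly6c1, -0.029 to 0.19 for Myb, -0.32 to 0.30 for F13a1, -0.12 to 0.38 for Csf1r, -0.49 to 0.39 for Cd72, -0.54 to 1.17 for Car1, -0.38 to 0.086 for Mkrn1, -0.35 to 0.16 for Fech, -3.90 to 0.062 for Prg3, -3.93 to 2.63 for Prg2, -3.31 to 3.17 for Epx, -6.41 to 0.34 for Jun, -5.09 to 0.076 for Fos, -1.07 to 3.22 for Zfp36, -2.83 to 1.66 for Dusp1 and -0.23 to 0.44 for Rpl8. Reversed values under other settings were F13a1 0.089, Fech 0.024 and Zfp36 0.003 with DESeq2 size factors, F13a1 0.15, Mkrn1 0.028, Fech 0.095 and Zfp36 0.043 with upper quartile scaling, F13a1 0.047 and Fech 0.010 with library totals, F13a1 0.089, Fech 0.024 and Zfp36 0.003 with the DESeq2 Wald test, F13a1 0.18, Mkrn1 0.062, Fech 0.13 and Zfp36 0.062 at 10 CPM, Csf1r -0.11, Tcf4 -1.21, Xbp1 0.040, Edem1 -0.21, Lck 0.13, Rora -0.074, Mkrn1 0.14, Zfp36 0.14 and Rps3 0.21 relative to length, Cd72 -0.006 without a filter, Cd72 -0.024 and Zfp36 1.04 with the replicate block.

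The labels number replicates alike in each group, but nothing says that a number marks shared mice, and the deviations of same-numbered libraries had a correlation of -0.065 over genes between Lin- WT and LSK- WT. Between LSK- WT and LSK- XistΔ/Δ it was 0.352 on the scale of 12 libraries, and replicates 1 of the sorted groups were higher for Jun. With the replicate number as a block, 2621 genes were called higher and 1156 lower and the stroma median was 4.14. Under that pairing Mpo (adjusted p = 0.0605), Jun (0.092) and Fos (0.119) were not called by edgeR and Vcam1 was, and the block changed no other call among the named genes.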
